A study of Mus musculus with 6 samples.

Results

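Cytotoxic lymphocytes, which are natural killer cells and killer T cells, were examined in mouse kidney through 9 of the genes they are known for. The genes were Il2rb, Klrd1, Klrk1, Ncr1, Nkg7, Prf1, Gzma, Gzmb and Gzmk. They were taken as the 10 non-control probes whose transcript accession belongs to one of these genes, of 55681 probes and 20284 named genes on the array. Whole-kidney total RNA came from male C57BL/6 mice, an inbred laboratory strain with no further allele or agent named in the labels, in an aged group of 20 months and a young group of 2 months. Each age had 3 samples, each on its own single-colour Agilent microarray. Per the labels the 3 RNA preparations of an age were independent, but whether they stand for different mice is not stated. The p-values therefore cover only the variation among these 3 preparations, and part of it may be technical. All values below are log2 processed signal minus that array's 75th percentile, so 0 is the level of a fairly bright probe. Changes are aged minus young on this scale.

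Natural killer cells are innate lymphocytes that kill stressed, infected or transformed cells without prior priming, and killer T cells do the same after recognising an antigen. Both store granules that hold perforin, which opens pores in the target's membrane, and granzymes, which are proteases that enter the target and start its death. Whether a natural killer cell fires is set by a balance of activating and inhibitory surface receptors, and its survival depends on interleukin-15 read through a receptor that includes the Il2rb chain. In kidney such cells are a small share of the tissue, lying between tubules and in vessels, so that whole-organ RNA holds little of their message.

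The promoters of 4 granule genes are shown so that the start regions can be read beside the values of Nkg7, Prf1, Gzma and Gzmb. They come from RefSeq on build GRCm38.p6, in which 7 of the 9 genes had a start region, 250 bases before to 50 bases after the start site. The Nkg7 region lies at chr7:43436888-43437187 on the plus strand and the Prf1 region at chr10:61297586-61297885 on the plus strand. The Gzma region lies at chr13:113100932-113101231 and the Gzmb region at chr14:56262285-56262584, both on the minus strand. Capitals mark matches, on either strand, to 4 motifs. These were a T-box motif spelt GGTGTG and the Runx core, which is spelt TGTGGT or, read on the other strand, ACCACA. A STAT motif was spelt TTCNNNGAA, with N for any base. An AP-1 motif was spelt TGANTCA. No matches overlapped in these regions.
Nkg7: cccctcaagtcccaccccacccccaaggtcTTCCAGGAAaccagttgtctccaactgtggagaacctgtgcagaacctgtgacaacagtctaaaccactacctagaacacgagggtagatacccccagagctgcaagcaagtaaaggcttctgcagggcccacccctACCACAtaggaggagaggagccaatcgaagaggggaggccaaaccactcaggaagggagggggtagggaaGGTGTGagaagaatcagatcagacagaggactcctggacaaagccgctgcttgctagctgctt
Prf1: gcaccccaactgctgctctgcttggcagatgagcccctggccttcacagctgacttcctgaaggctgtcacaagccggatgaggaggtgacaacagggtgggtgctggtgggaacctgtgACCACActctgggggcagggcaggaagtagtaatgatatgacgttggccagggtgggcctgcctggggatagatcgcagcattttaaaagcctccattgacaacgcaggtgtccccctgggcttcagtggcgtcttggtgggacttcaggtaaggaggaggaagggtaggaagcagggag
Gzma: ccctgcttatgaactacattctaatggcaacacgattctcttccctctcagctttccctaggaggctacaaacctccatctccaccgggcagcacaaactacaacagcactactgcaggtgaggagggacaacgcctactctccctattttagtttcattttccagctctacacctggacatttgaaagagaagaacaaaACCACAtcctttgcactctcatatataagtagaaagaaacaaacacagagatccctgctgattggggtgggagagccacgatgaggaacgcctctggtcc
Gzmb: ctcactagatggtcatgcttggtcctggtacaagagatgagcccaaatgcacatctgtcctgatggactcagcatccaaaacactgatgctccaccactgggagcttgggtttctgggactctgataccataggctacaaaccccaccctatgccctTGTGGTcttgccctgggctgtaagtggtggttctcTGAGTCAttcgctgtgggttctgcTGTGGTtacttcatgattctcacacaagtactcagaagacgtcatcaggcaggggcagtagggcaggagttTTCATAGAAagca

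Eomes and Tbx21 are T-box factors, Runx3 binds the Runx core, and Stat4 and the Stat5 proteins bind STAT sites, which is why these letters were searched. The Runx core was in 6 of the 7 genes with a start region (Gzma, Gzmb, Prf1, Nkg7, Klrk1 and Ncr1) and in 16.8% of all 32851 promoters of the same length. The T-box motif was in Nkg7, 13 bases before its start, and in Gzmk, and in 19% of all promoters. The STAT motif was in Nkg7 and Gzmb (8.3% of all promoters), and the AP-1 motif in Gzmb and Klrk1 (7.81% of all). Gzmb held 4 matches and Nkg7 held 3. A match is a string of letters and not a shown binding site. Some members are also neighbours on a chromosome in RefSeq: Gzma and Gzmk on chromosome 13, and Klrd1 and Klrk1 on chromosome 6, with 0 protein-coding genes between the genes of each pair.

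The arrays differed in brightness: their 75th percentile of processed signal ran from 2702 to 4498 in the aged samples and from 2892 to 4366 in the young samples. The share of probes well above background ran from 46.3% to 62.9% on aged arrays and from 55.3% to 72.9% on young arrays, and no probe was saturated. In both ages the brightness and this share were highest for replicate 1 and lowest for replicate 3. All 6 arrays lay on 1 slide with the aged samples in 1 slide row and the young samples in the other, so effects of row and of age cannot be told apart. The 12 kidney markers, among them Umod and Slc34a1, were well above background on all 6 arrays. Their median change was -0.11, with 0 of 12 past the test.

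Of the 9 genes, 8 (with 9 of the 10 probes) passed the filter, which asked for signal well above background on every array of at least 1 age. With limma across all 14549 tested genes and Benjamini-Hochberg adjustment, 1 of these 8 genes, Il2rb, was higher in aged kidney and 0 were lower. Over all tested genes 1.98% were called higher, 1.4% lower and 3.37% in either direction. The aged values lay entirely above the young values for 3 members, Il2rb, Klrd1 and Nkg7, and entirely below them for 0. Over all tested genes the groups did not overlap for 21.9%, with aged kidney higher for 10.4% and lower for 11.5%. The same 3 genes had an unadjusted p under 0.05, against 17.1% of all tested genes in either direction and 7.97% with aged kidney higher. The changes of the 8 genes ran from -0.75 to 0.89, with 5 above 0 and 3 below and a median of 0.08, while the median over all tested genes was -0.01 and 47.2% of them lay above 0.

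**Figure D1:**
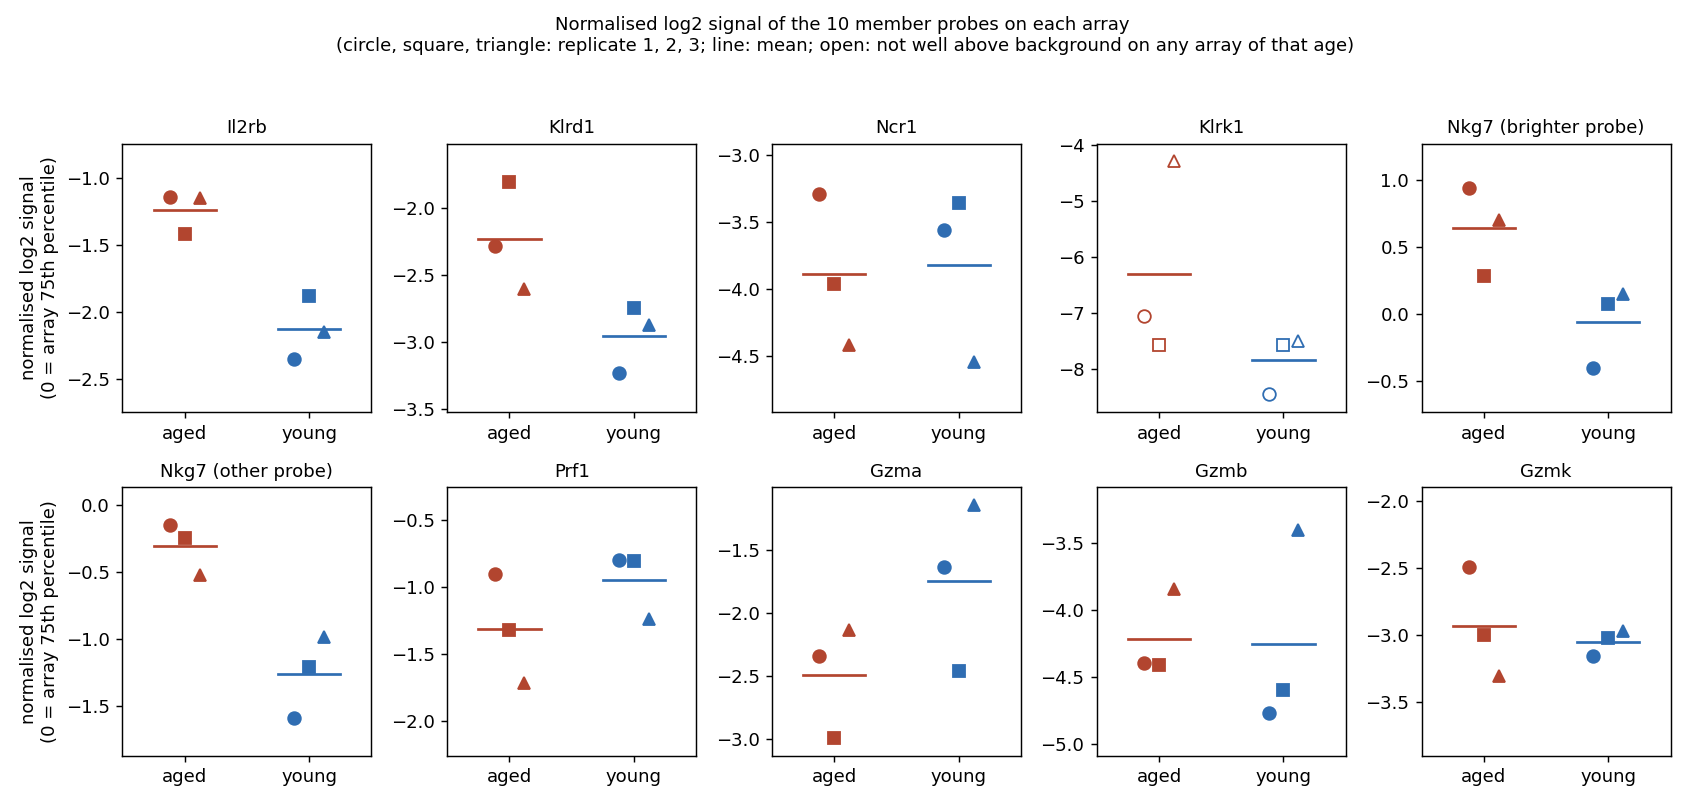
Normalised log2 signal (vertical axis, 0 being the array's 75th percentile) of the 10 probes on the 3 aged (red, left) and 3 young (blue, right) arrays, with a line at each group's mean and open symbols for an age in which no array had the probe well above background. The aged points lie above all young points for Il2rb, Klrd1 and both Nkg7 probes, and the groups overlap for Ncr1, Prf1, Gzma, Gzmb and Gzmk.

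Il2rb encodes the beta chain shared by the receptors for interleukin-2 and interleukin-15. Its log2 level was -1.14, -1.42 and -1.15 in the aged samples, against -2.35, -1.88 and -2.15 in the young samples. The lowest aged sample stood above the highest young sample, and the aged samples lay close together. The means were -1.24 ± 0.16 in aged and -2.13 ± 0.24 in young kidney (SD, n = 3 each). Il2rb was thus 1.85-fold higher in aged kidney, a log2 change of 0.89 ± 0.15 (SE) with a 95% interval of 0.54 to 1.24 and limma adjusted p = 0.0243. In bulk tissue, more cells of a type and more RNA per cell cannot be told apart. The call was lost without aged replicate 2 (adjusted p = 0.0580), aged replicate 3 (0.0785), young replicate 1 (0.0873) or young replicate 3 (0.126), while the change stayed between 0.78 and 1.01. It was also lost with normexp background correction (adjusted p = 0.0881) and with no filter on dim probes (0.147).

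Klrd1, also called CD94, pairs with NKG2 chains to form receptors that read the non-classical class I molecule Qa-1 in mouse. Its level was -2.28, -1.81 and -2.61 in aged kidney and -3.23, -2.75 and -2.87 in young kidney. The groups did not overlap, but the lowest aged sample was near the highest young one. The means were -2.23 ± 0.40 in aged and -2.95 ± 0.25 in young samples (SD, n = 3 each). The change of 0.72 ± 0.22 (95% interval 0.21 to 1.22), which is 1.64-fold, did not pass after adjustment (adjusted p = 0.143). With each array centred on its median instead it did (change 0.76, adjusted p = 0.0389).

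Ncr1, also called NKp46, is an activating receptor that marks natural killer cells and some innate lymphoid cells in mouse. It was dim, and well above background on 2 of 3 aged and 3 of 3 young arrays. Its level was -3.29, -3.96 and -4.42 in aged samples and -3.56, -3.36 and -4.54 in young samples, with overlapping groups. The change was -0.07 ± 0.36, with an interval of -0.92 to 0.77 and adjusted p = 0.944, so the interval holds rises and falls of similar size. The sign of that change was positive without aged replicate 3 (0.19), young replicate 1 (0.06) or young replicate 2 (0.16), and with normexp background correction (0.10).

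Klrk1, also called NKG2D, is an activating receptor for stress-induced ligands of the Raet1 and H60 families in mouse. Its probe was well above background on 0 of 6 arrays. The processed signals were 34.1, 22.3 and 137 in the aged samples and 12.5, 21.6 and 16.1 in the young samples. The third aged sample read higher than the rest, but it too was not well above background, so Klrk1 was not tested and no fold is given.

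Nkg7 encodes a membrane protein of cytotoxic granules that takes part in their release. Its brighter probe read 0.94, 0.28 and 0.70 in aged samples and -0.40, 0.08 and 0.14 in young samples. All aged values lay above all young values, the nearest pair being aged replicate 2 and young replicate 3. The means were 0.64 ± 0.33 in aged and -0.06 ± 0.30 in young kidney (SD, n = 3 each), a change of 0.70 ± 0.21 (interval 0.22 to 1.18) or 1.63-fold, with adjusted p = 0.134. The other Nkg7 probe read -0.15, -0.25 and -0.52 in aged samples and -1.59, -1.21 and -0.99 in young samples, and here the groups were farther apart. In the fit over all 30826 tested probes, where 2.09% were called in either direction and 1.48% higher, the second probe changed by 0.95 ± 0.18 (interval 0.52 to 1.39, 1.94-fold, adjusted p = 0.057). Both probes moved the same way, but the call turned on the choice between them. With the second probe standing for the gene, Nkg7 passed (adjusted p = 0.0327), as it did with median centring of the arrays (0.0394), and with the mean of both probes the change was 0.83 (adjusted p = 0.0507).

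Prf1 encodes perforin. Its level was -0.90, -1.32 and -1.71 in aged samples and -0.80, -0.81 and -1.24 in young samples. The third sample was the lowest of each age, and the groups overlapped. The change was -0.36 ± 0.22, with an interval of -0.87 to 0.14 and adjusted p = 0.451. Leaving out aged replicate 1 gave -0.57 and leaving out aged replicate 3 gave -0.16.

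Gzma encodes granzyme A, a tryptase-like protease, and had the most negative change of the 8 tested members. Its level was -2.34, -2.99 and -2.14 in aged samples and -1.63, -2.46 and -1.14 in young samples. The second sample was the lowest of each age, and the young values spread widely enough to overlap the aged ones. The means were -2.49 ± 0.45 in aged and -1.74 ± 0.66 in young kidney (SD, n = 3 each). The change of -0.75 ± 0.34 had an interval of -1.55 to 0.05 and adjusted p = 0.323, and it ran from -1.10 to -0.45 over the alternative settings, the smallest sizes being -0.45 without young replicate 3 and -0.50 without aged replicate 2. Gzma thus took the opposite sign to Il2rb, Klrd1 and Nkg7, but its difference did not pass the test.

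Gzmk encodes granzyme K and adjoins Gzma on chromosome 13. Its level was -2.49, -2.995 and -3.30 in aged samples, against -3.15, -3.02 and -2.97 in young samples. The young samples were close together and lay within the range of the aged ones. The change was 0.12 ± 0.20 (interval -0.34 to 0.58, adjusted p = 0.821), and without aged replicate 1 it was -0.10.

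Gzmb encodes granzyme B, which cleaves caspases and their substrates in the target cell. Its level was -4.39, -4.41 and -3.84 in aged samples and -4.77, -4.59 and -3.40 in young samples. The third sample was the highest of each age. The change was 0.04 ± 0.35 (interval -0.77 to 0.85, adjusted p = 0.968). It was -0.15 without aged replicate 3, -0.22 without young replicate 1, -0.13 without young replicate 2 and 0.47 without young replicate 3, so single arrays decided its sign.

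**Figure D2:**
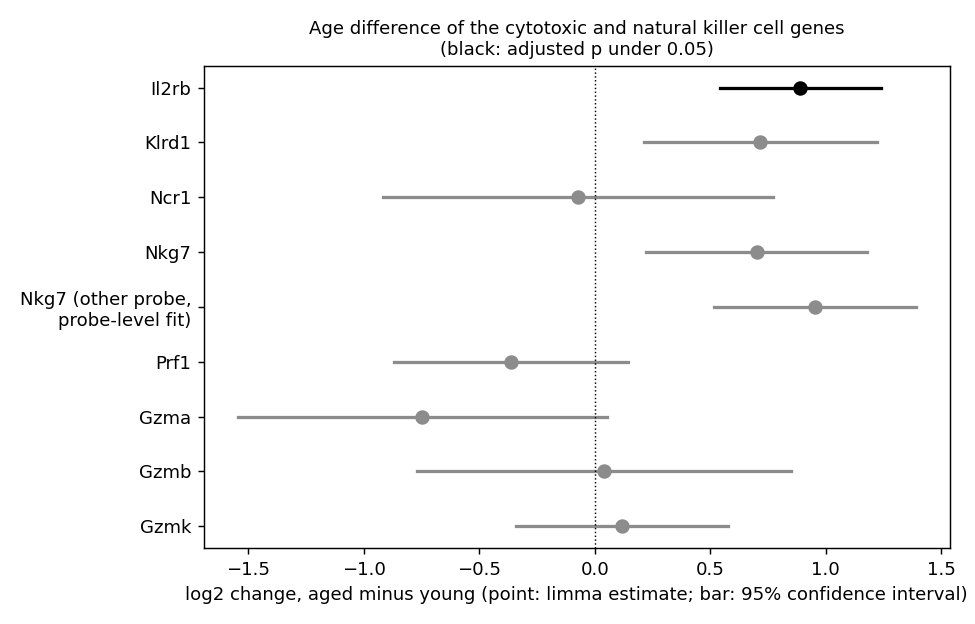
Log2 change per gene, aged minus young (horizontal axis), with limma's 95% confidence interval as a bar. Il2rb alone (black) passed the adjusted threshold, the intervals of Klrd1 and both Nkg7 probes also lie above 0, and those of Ncr1, Prf1, Gzma, Gzmb and Gzmk cross 0.

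**Figure D3:**
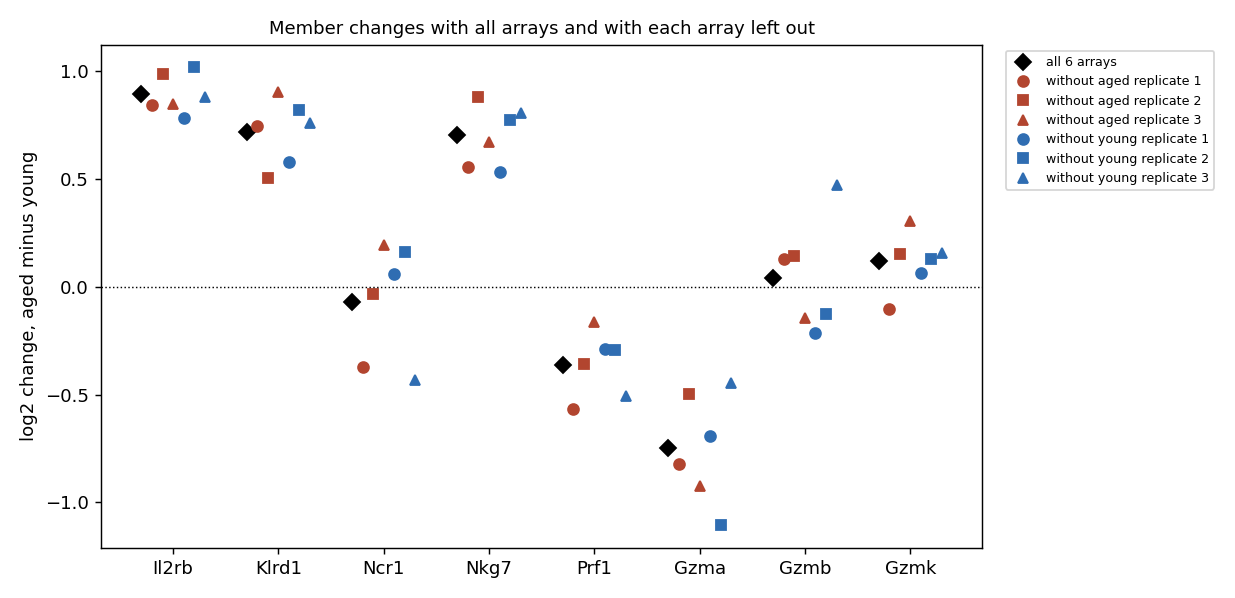
Log2 change, aged minus young (vertical axis), of each tested gene with all 6 arrays (black diamond) and with 1 array left out (red for an aged, blue for a young array). Il2rb, Klrd1 and Nkg7 stayed above 0 and Prf1 and Gzma below 0 in all 6 cases, while Ncr1, Gzmb and Gzmk changed sign.

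The rest of the granule machinery was read from a list of 18 granule and death-ligand genes that includes 5 of the members. Of its 10 tested genes, 1 rose and 0 fell, with a median change of 0.13. Every call named below, for this list and the others, was lost when dim probes were kept in the test. Some were also lost with normexp, with quantile normalisation or with the replicate number as a block. The gene that rose was Ctsw, the cysteine protease cathepsin W of cytotoxic lymphocytes. It read -1.50, -1.43 and -1.73 in aged samples and -2.42, -2.45 and -2.13 in young samples, with no overlap. Its change was 0.78 ± 0.13 (1.72-fold, adjusted p = 0.0254). The call was lost without aged replicate 2 (adjusted p = 0.102) or young replicate 1, 2 or 3 (0.108, 0.0946 and 0.0726). Granzyme genes next to Gzmb and others of that family (Gzmc, Gzmd, Gzmf, Gzmg and Gzmn) were well above background on 0 of 6 arrays. Of 9 tested genes for granule release and for protection from granzymes, 0 passed in either direction and the median was -0.03. Changes were above 0 for 4 and below 0 for 5, and the groups did not overlap for 2 in each direction. The smallest p values there belonged to Serpinb6a, a serine protease inhibitor, with a change of 0.57 ± 0.15 (adjusted p = 0.101), and Stx11, a syntaxin needed for granule fusion, with 0.68 ± 0.21 (adjusted p = 0.142). Serpinb6a passed without aged replicate 1 (adjusted p = 0.0364) and Stx11 with median centring of the arrays (0.0344). Stx11 was well above background on 2 of 3 aged and 3 of 3 young arrays, so it passed the filter only through the young samples. Rab27a of the same list, chosen after its values were seen, had the opposite sign. It changed by -0.58 ± 0.21 (adjusted p = 0.205), with all aged values below the young ones.

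Among the lectin receptors of the natural killer gene complex, to which Klrd1 and Klrk1 belong, 21 of 23 genes had a probe and 10 were tested. One of the 10, Klrb1b, rose and 0 fell, and the median was 0.27. Klrb1b encodes an inhibitory receptor of the NKR-P1 family whose ligand is Clec2d. It read -1.64, -2.48 and -2.20 in aged samples and -3.12, -3.04 and -3.55 in young samples, a change of 1.13 ± 0.23 (2.19-fold, adjusted p = 0.0441). The aged values all lay above the young ones. But the call was lost without aged replicate 2 or 3 (adjusted p = 0.0663 and 0.111) or young replicate 1, 2 or 3 (0.113, 0.0889 and 0.188). Klrc1 and Klrc3, which encode NKG2 partners of Klrd1, were well above background on 0 of 6 arrays. The Klra genes form a family of related sequences, so a probe may read more than 1 of them and their values are uncertain. Chosen after their values were seen, Klra1 and Klra8 differed in sign, with -0.94 ± 0.30 (adjusted p = 0.160) and 0.89 ± 0.37 (0.270). Klra1 was well above background on 1 of 3 aged and 3 of 3 young arrays, so it passed the filter only through the young samples and its change is uncertain. Klra8 was well above background on 3 of 3 arrays of each age.

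Of 9 tested receptors outside that complex, 1 rose and 0 fell, 5 changes were above 0 and 4 below, and the median was 0.17. The unadjusted limma p was under 0.05 for 3 of these genes with aged kidney higher and for 3 with it lower. Havcr2, the inhibitory receptor TIM-3 that is also found on macrophages and dendritic cells, read -2.38, -2.44 and -2.83 in aged samples and -4.04, -3.52 and -3.71 in young samples. Its change was 1.20 ± 0.18 (2.30-fold, adjusted p = 0.0148), lost without aged replicate 2 (0.0753) or young replicate 3 (0.0987). Crtam, an adhesion receptor of activated killer cells chosen after its values were seen, had the opposite sign, -0.91 ± 0.22 (adjusted p = 0.0737). Crtam was well above background on 2 of 3 aged and 3 of 3 young arrays, so it passed the filter only through the young samples. Of the 6 tested adaptor genes, which carry the signals of activating receptors into the cell, 1 rose and 0 fell, all 6 changes were above 0 and the median was 0.59. The 11 tested macrophage and dendritic cell markers also all changed above 0, with a median of 0.57. Which cells the adaptor signal came from was not tested. Sh2d1b1, which encodes the adaptor EAT-2, read -2.62, -2.64 and -2.85 in aged samples and -3.53, -3.69 and -3.19 in young samples. It rose by 0.77 ± 0.15 (1.70-fold, adjusted p = 0.0388), and leaving out any 1 of the 6 arrays ended the call (0.0576 to 0.144). Hcst, the adaptor of Klrk1, was chosen after its values were seen and changed by 0.63 ± 0.15 (adjusted p = 0.0678). The median of the 6 tested ligands of these receptors was 0.23 and 0 passed. Cadm1, the ligand of Crtam, changed by 0.53 ± 0.13 (adjusted p = 0.0720), and Cd48, the ligand of the receptor 2B4, by 0.48 ± 0.19 (0.258). Cd244a, the gene of 2B4 itself, was chosen after its values were seen and had the opposite sign, -0.50 ± 0.20 (adjusted p = 0.261). Without aged replicate 1 Cadm1 passed (change 0.64, adjusted p = 0.0284), and without young replicate 1 the change of Cd48 was 0.30.

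Il2rb acts with a common gamma chain, and of 14 tested genes of the interleukin-2 and interleukin-15 pathway 3 rose and 0 fell, with a median of 0.12. Besides Il2rb these were Il2rg, the gamma chain itself, and Il21r, the receptor for interleukin-21. Il2rg read -0.57, -0.64 and -0.46 in aged samples and -1.33, -1.43 and -1.04 in young samples (change 0.71 ± 0.13, 1.64-fold, adjusted p = 0.0326). Il21r read -2.23, -2.36 and -2.52 in aged samples and -2.97, -2.89 and -3.14 in young samples (change 0.63 ± 0.12, 1.55-fold, adjusted p = 0.0378). Both had aged samples above all young samples. The Il2rg call was lost without aged replicate 2 or 3 or any young replicate (adjusted p = 0.0706 to 0.130), and the Il21r call without aged replicate 1 or 2 or any young replicate (0.0512 to 0.158). Normexp background correction also ended both calls (adjusted p = 0.212 for Il2rg and 0.0829 for Il21r), and a trended variance model ended that of Il21r (0.0673). Il15, the cytokine read by Il2rb, and Il15ra, which presents it, were chosen after their values were seen. They changed by 0.21 ± 0.17 (adjusted p = 0.599) and -0.36 ± 0.15 (0.280), so neither passed.

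In the list of interleukin-12, interleukin-18 and interferon gamma genes, which holds signals that drive killer cells and products they release, 3 of 10 tested genes rose and 0 fell, with a median of 0.62. Ccl5, a chemokine made by activated killer cells and T cells, read 2.05, 2.02 and 1.63 in aged samples and 0.55, 1.05 and 0.94 in young samples (change 1.05 ± 0.17, 2.07-fold, adjusted p = 0.0226). Xcl1, a chemokine that natural killer cells use to draw dendritic cells, read -1.77, -1.76 and -1.68 in aged samples and -2.95, -2.26 and -2.61 in young samples (0.87 ± 0.17, adjusted p = 0.0410). Stat4, which transmits the interleukin-12 signal, read -3.07, -2.84 and -3.22 in aged samples and -4.03, -3.71 and -4.00 in young samples (0.87 ± 0.14, adjusted p = 0.0226). None of the 3 had overlapping groups. The Ccl5 and Stat4 calls were lost without aged replicate 2 or young replicate 1 or 3 (adjusted p = 0.0649 to 0.107 and 0.0791 to 0.121). The Xcl1 call was lost without any single array but young replicate 2 (0.0523 to 0.171), and also with quantile normalisation (0.0686) and normexp (0.0504). Ifng itself, chosen after its values were seen, changed by 0.61 ± 0.19 (adjusted p = 0.154). It was dim, well above background on 2 of 3 aged and 3 of 3 young arrays, and its groups overlapped.

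Of 10 tested transcription factors of cytotoxic cells 2 rose, Eomes and Runx3, 0 fell and the median was 0.22. Eomes is the T-box factor that marks mature natural killer cells and memory killer T cells. Its level was -2.22, -2.96 and -2.64 in aged samples, against -3.90, -3.77 and -3.83 in young samples. The young samples were nearly equal and all lay below the aged ones. The change was 1.23 ± 0.18 (2.34-fold, adjusted p = 0.0151), lost without aged replicate 3 (0.0514) or young replicate 1 or 3 (0.0617 and 0.102). Runx3, a factor that promotes the killer programme, was well above background on 2 of 3 aged and 3 of 3 young arrays and changed by 0.94 ± 0.18 (1.91-fold, adjusted p = 0.0347). Its call was lost without aged replicate 2 or 3 or young replicate 1 or 3 (0.0914 to 0.141). Tbx21, the T-box factor T-bet, was chosen after its values were seen and changed by 0.21 ± 0.15 (adjusted p = 0.535). Of 9 tested homing and residence genes 1 rose, 0 fell and the median was 0.36. Cxcr6, a chemokine receptor of tissue-resident lymphocytes, read -0.88, -0.69 and -0.67 in aged samples and -2.03, -1.59 and -1.58 in young samples. It changed by 0.98 ± 0.15 (1.98-fold, adjusted p = 0.0163), lost without aged replicate 2 or 3 or young replicate 3 (0.0569 to 0.0767).

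**Figure D4:**
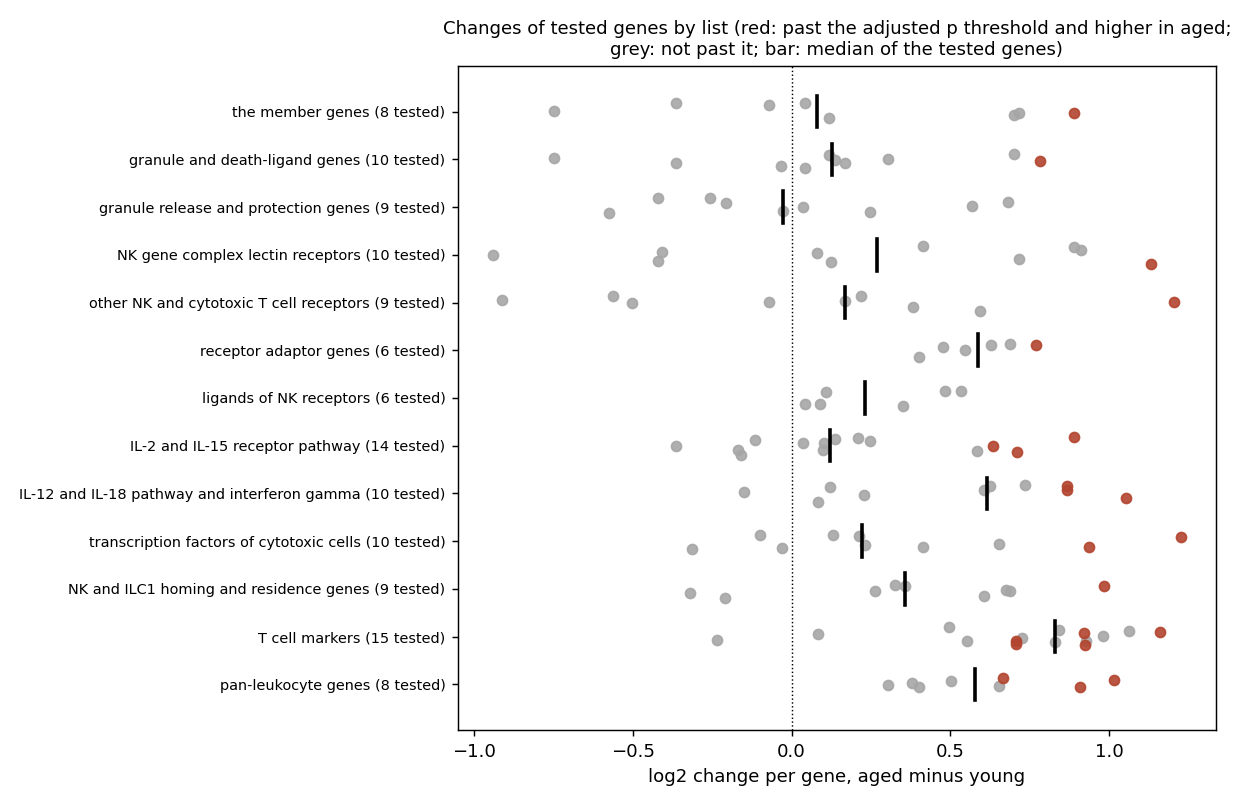
Log2 change per tested gene, aged minus young (horizontal axis), for the 9 cytotoxic genes and 12 related lists, red where the gene passed the adjusted threshold and was higher in aged kidney, with a bar at each list's median. The 8 tested cytotoxic genes spread from -0.75 to 0.89 around a median of 0.08, while the T cell list has a median of 0.83 and the adaptor list 0.59.

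Markers of other immune cells moved with age in the same samples, and their part in the values above was not tested. Of 15 tested T cell markers 5 rose and 0 fell, 14 changes were above 0, the groups did not overlap and were higher for 12, and the median was 0.83. The 4 with the smallest p were Cd2 (1.16 ± 0.16, adjusted p = 0.0126), Cd5 (0.71 ± 0.10, 0.0129), Lck (0.71 ± 0.13, 0.0354) and Cd3d (0.92 ± 0.19, 0.0461). Their calls were lost without aged replicate 2 or young replicate 3 for Cd2 (0.0527 and 0.0750), without any young replicate for Cd5 (0.0541 to 0.0776), and without any 1 of the 6 arrays for Lck (0.0502 to 0.140) and Cd3d (0.0670 to 0.165). Cd8a, which marks killer T cells and was chosen after its values were seen, changed by 0.08 ± 0.17 (adjusted p = 0.848). Cd8b1, the other CD8 gene of the list, chosen in the same way, changed by 1.06 ± 0.36 (adjusted p = 0.188). Its aged values lay above all young values, but it was well above background on only 2 of 3 aged arrays, against 3 of 3 young arrays. The summed linear level of the tested T cell markers, relative to each array's 75th percentile, was 3.98 to 4.93 in aged samples and 2.65 to 2.99 in young samples. Of 8 tested pan-leukocyte genes 3 rose, 0 fell and the median was 0.58, with a summed level of 13.5 to 17.3 in aged samples and 9.58 to 12.9 in young samples. The 3 were Cd53 (1.01 ± 0.17), Ptprcap (0.91 ± 0.16) and Rac2 (0.67 ± 0.13), with adjusted p = 0.0217, 0.0279 and 0.0361. The Cd53 call was lost without aged replicate 2 or 3 or young replicate 1 or 2 (0.0668 to 0.0824), the Ptprcap call without aged replicate 2 or 3 or any young replicate (0.0508 to 0.104), and the Rac2 call without any 1 of the 6 arrays (0.0512 to 0.137). For macrophage and dendritic cell markers 3 of 11 rose, 0 fell and the median was 0.57, and for B and plasma cell markers 4 of 8 rose, 0 fell and the median was 1.11. Of 7 tested neutrophil, mast cell and eosinophil markers 1 rose, 0 fell and the median was 0.58. The marker that rose was well above background on 3 of 3 aged and 0 of 3 young arrays. It passed the filter only through the aged samples, so the size of its change is uncertain. Of 6 tested red blood cell genes 0 passed, and the median was -0.19.

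The summed linear level of the 8 tested cytotoxic genes was 3.63, 2.64 and 2.99 in aged samples and 2.19, 2.49 and 2.61 in young samples, so the lowest aged sample was close to the highest young one. Nkg7, the brightest member, weighs most in this sum, which therefore does not stand for the 8 genes alike. The mean log2 level of Nkg7 was 0.64 in aged and -0.06 in young samples, against -1.31 and -0.95 for Prf1. After each gene was centred on its 6-array mean, the median over the 8 tested members was 0.40, -0.06 and -0.02 in aged samples and -0.35, -0.18 and -0.13 in young samples. The first aged sample stood highest and the first young sample lowest. The lectin receptor list overlapped between ages, at 0.53, 0.10 and -0.24 in aged samples and -0.10, -0.42 and 0.17 in young samples. The T cell list was separated more widely, at 0.48, 0.36 and 0.11 in aged and -0.51, -0.30 and -0.30 in young samples.

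**Figure D5:**
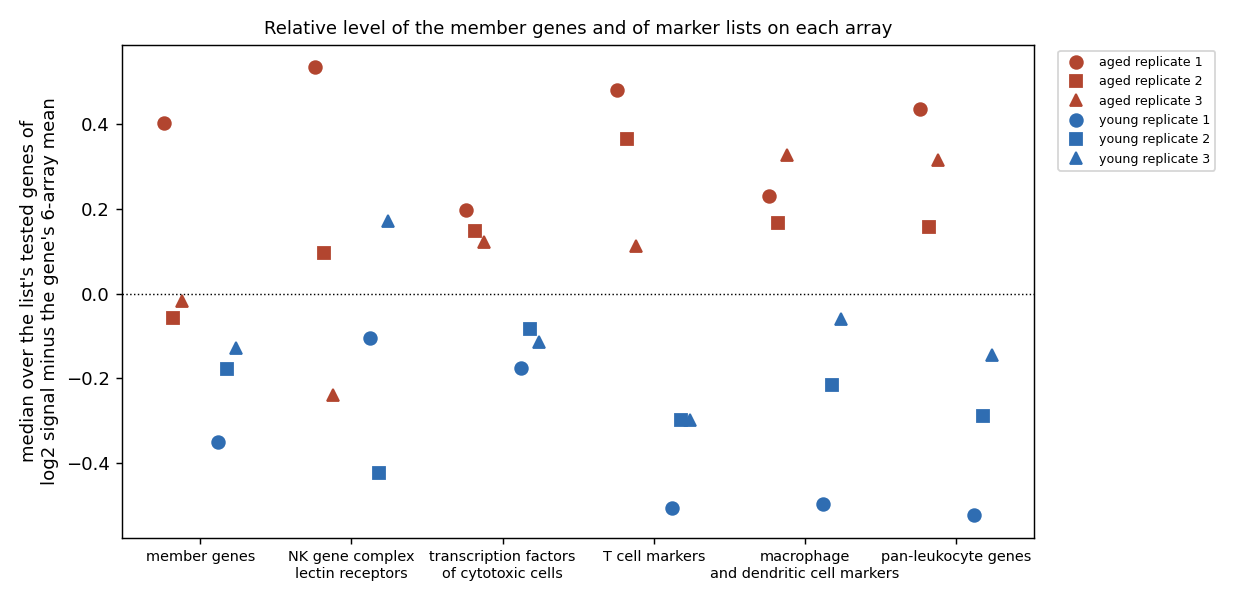
Median over a list's tested genes of log2 signal minus that gene's 6-array mean (vertical axis) on each aged (red, left) and young (blue, right) array for 6 lists. Aged arrays lie above all young arrays for the cytotoxic genes, the factors, the T cell, macrophage and pan-leukocyte lists, and overlap them for the lectin receptors.

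The genes whose centred profile over the 6 arrays was nearest to each tested member were found by the root mean square difference on the log2 scale. Nothing about shared function or control follows from such nearness over 6 arrays. The nearest to Il2rb were Cyp4a12a (difference 0.097) and Kcnn4 (0.105), where Il2rb itself departed from its mean by 0.475. Pilra (0.0840), which encodes a receptor of myeloid cells, was among the nearest 2 to Nkg7, and Omd (0.0752) and Il5ra (0.124) were nearest to Klrd1. Arid3c (0.0324) and Gm7444 (0.0567) were nearest to Prf1, and Rbm38 (0.0766) and Zfyve9 (0.136) to Ncr1. Tbc1d10c (0.0668) was among the nearest 2 to Gzmk. The differences were larger for Gzma and Gzmb, which departed from their own means by 0.594 and 0.470. Klra4 (0.185) and Atg9a (0.213) were nearest to Gzma, and Tmtc3 (0.208) and Nek11 (0.232) to Gzmb. These differences are not scaled to the spread of each gene. No other member was among the nearest 2 of any member.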

How the data were processed

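Kidney RNA (3 aged and 3 young samples) was copied to cDNA and labelled by random priming with Klenow enzyme, per the labels' protocols, which can label both strands. Per the file headers, Agilent arrays of design 028005 (grid build mm9) were quantified with Feature Extraction 11.5.1.1, and the processed signal intensity is linear and background-subtracted, and arrays were not scaled to each other. The authors' deposited log2 value table matched the scanner values after subtraction of the array's 75th percentile, which settles its scale and centring, and served as an alternative.

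Control spots and non-uniformity or population outliers were left out, spots were averaged per probe on the log2 scale, and each array's 75th percentile over non-control spots was subtracted. Tested probes had signal well above background on every array of 1 age or both. Symbols came from RefSeq on GRCm38.p6. The array's own build is another, so genes have no coordinates here. The brightest probe over 6 arrays stood for a gene. The ages were compared by limma's lmFit and eBayes in a 2-sided test, and p-values were adjusted by Benjamini-Hochberg over every tested gene, with a threshold of 0.05. The smallest p of an exact permutation test with 3 against 3 is 0.1, so none was used. The number of arrays limits the precision.

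The members and the lists (granule, receptor, adaptor, ligand, cytokine, factor, homing and cell type genes) were chosen with earlier results of these data known. Genes named were all members, genes past the threshold in each list (the 4 smallest p values at most), the 2 smallest p values in lists with none past it, and 2 nearest profiles per member (some are not reported here), while for the macrophage, B cell, granulocyte, red blood cell and kidney lists only counts are given. Any other gene is marked where named. Alternatives were other scalings, normexp on the median signal (offset 50), the authors' values, other filters, outliers kept, mean of probes, other variance models, the replicate number as a block and each array left out. The 75th percentile over averaged probes and Nkg7 by its other probe were alternatives chosen after seeing the data. The procedure was tested on simulated data. Software was R 4.3.3, limma 3.58.1, version 1.17.8 of data.table, jsonlite 2.0.0, Python 3.11.15, matplotlib 3.10.9, numpy 2.4.6 and pandas 2.3.3.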

Additional observations from a re-analysis of the deposited data

How the results depend on the processing

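Of 14549 genes tested with limma, 491 passed (288 higher, 203 lower in aged kidney), and of the 8 tested cytotoxic genes 1 was higher and 0 lower. The count of all genes was 800 with median centring (433 higher, 367 lower), 302 with normexp on the median signal (210 higher, 92 lower), 16 of 20284 genes when dim probes were kept (15 higher, 1 lower), and 782 with array weights (428 higher, 354 lower). Leaving out 1 array gave 70 to 921 genes, namely 921, 145 and 335 without aged replicates 1, 2 and 3 and 154, 240 and 70 without young replicates 1, 2 and 3. The count of cytotoxic genes called higher was 3 with median centring, 2 with Nkg7 by its other probe, 0 with normexp and 0 with no filter, and 0 to 1 with 1 array left out. It was 1 under the other settings apart from the replicate block, and the count called lower was 0 under all 20 alternatives. Limma with no adjustment gave 3 genes with p under 0.05, all higher.

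With the replicate number as a replicate block, 266 genes passed (164 higher, 102 lower) and 0 cytotoxic genes did, with adjusted p = 0.0718 for Il2rb and 0.0618 for Gzma. Same-numbered samples shared a slide column. Over the tested genes their deviations from the group means correlated at 0.06, -0.09 and 0.10. The numbers were therefore not taken as pairs in the main fit. A correlation over all genes cannot show whether a single gene varied with the replicate number. With the block the SE was 0.13 against 0.34 in the main fit for Gzma, and 0.17 against 0.15 for Il2rb.

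Changes took the other sign for Gzmb without aged replicate 3 (-0.15) and young replicates 1 (-0.22) and 2 (-0.13), for Gzmk without aged replicate 1 (-0.10), and for Ncr1 with normexp (0.10) and without aged replicate 3 (0.19) and young replicates 1 (0.06) and 2 (0.16). With 1 array left out the changes ran from -0.22 to 0.47 for Gzmb, from -0.10 to 0.30 for Gzmk and from -0.43 to 0.19 for Ncr1. None of these 3 genes passed under any alternative that gave a value. The changes of Il2rb, Klrd1 and Nkg7 stayed above 0, and those of Prf1 and Gzma below 0, under all 20 alternatives. Of the 20 genes named in the text as past the threshold, 14 kept it with normexp, 0 with no filter, 7 with the block, 17 with quantile normalisation, and 1 to 14 with 1 array left out, the lowest being without young replicate 3. The cause of these changes was not tested. Ncr1 has no value where signal on all 6 arrays was required, and Klrk1, near background, allows no comparison.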
